A study of Mus musculus with 10 samples.

Results

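Chromatin accessibility was examined at the 5 Sprouty and Spred genes Spry1, Spry2, Spry4, Spred1 and Spred2 in iNKT cells, the T cells with an invariant receptor for lipid antigens, sorted from the thymus. A region of the accessibility table was assigned to a gene if it overlapped the gene body or lay within 50 kb of the 5′ end of the gene (its start). This rule gave 64 of the 94823 regions, 9 at Spry1, 13 at Spry2, 9 at Spry4, 4 at Spred1 and 29 at Spred2, and the rule used position alone. The genes themselves were picked with earlier results of these data known, and the study had named Spry1 and Spry2 from these samples. No region was removed for low counts, so all 64 were tested. Within these windows the annotation held no other protein-coding gene.

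The cells were iNKT1 (CD27+ CD122+) and iNKT2 (CD27+ CD122-) cells from the thymus of BALB/c mice and of SKG mice, in which a hypomorphic allele of the kinase Zap70 is present in all cells on the BALB/c background. Per the study's methods the BALB/c mice were purchased, and littermate controls are not described for the SKG strain. The Zap70 allele and any other difference between these strains therefore cannot be told apart in the genotype comparisons. For iNKT1 each genotype had 2 libraries and for iNKT2 each had 3, which makes 4 groups, and no group received a further treatment. ATAC-seq marks open DNA by inserting sequencing adapters with a transposase, and the insertions in each region were counted. The labels do not say whether the libraries of a group came from separate mice or from pools, so p-values measure only the spread between these libraries.

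Sprouty and Spred proteins are intracellular brakes on the Ras-ERK branch of the mitogen-activated protein kinase (MAPK) pathway. Antigen receptor signals pass from Zap70 through adaptor proteins to Ras, then to Raf, MEK and ERK, and ERK activity in turn induces transcription of several Sprouty genes, which closes a negative feedback loop. Sprouty proteins act through partners such as Grb2 and Cbl at the level of Ras and Raf activation, whereas Spred proteins recruit the Ras GTPase-activating protein neurofibromin to the membrane.

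Each library held between 14988590 and 36342635 insertions in the listed regions. Levels are given as CPM, a library's insertions in a region scaled to a common library total that was adjusted with TMM factors, and a region was called when its adjusted p was under 0.01 and its estimated change at least 4-fold, the thresholds that the study used. Near their starts, the iNKT1 genes Tbx21, Il2rb, Cxcr3 and Ifng were more accessible in both iNKT1 groups, and Il17rb and Ccr7 in both iNKT2 groups, but Zbtb16 and Il4, also listed as iNKT2 genes, were not higher in iNKT2 throughout. Zbtb16 had mean levels of 46.0 CPM in BALB/c iNKT1 and 33.9 in BALB/c iNKT2, without overlap, and Il4 of 35.1 in SKG iNKT1 and 28.9 in SKG iNKT2. No region lay near the start of the thymocyte genes Rag1 and Cd8b1 or the myeloid genes Csf1r and Lyz2. Replicate 1 of both iNKT2 groups stood apart from the other iNKT2 libraries. The Zap70 mutation is a point mutation, which insertion counts do not check.

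The regions that carried the changes described below are identified by their distance in bp along the gene from its start to their nearest edge, with a minus sign for upstream. For 7 of them the central 300 bases are shown, 5 at Spry2 that include the regions next to the start, a region downstream of the gene and both far and near upstream regions, and the pair of intronic Spred2 regions with the smallest p-values between genotypes. Sequences are those of the plus strand of GRCm38 (mm10) from RefSeq, and capitals mark matches, on either strand, to the NFAT core TGGAAA, the Egr core GTGGGNG and the AP-1 site TGANTCA.
Spry2 +285 (chr14:105895482-105895781): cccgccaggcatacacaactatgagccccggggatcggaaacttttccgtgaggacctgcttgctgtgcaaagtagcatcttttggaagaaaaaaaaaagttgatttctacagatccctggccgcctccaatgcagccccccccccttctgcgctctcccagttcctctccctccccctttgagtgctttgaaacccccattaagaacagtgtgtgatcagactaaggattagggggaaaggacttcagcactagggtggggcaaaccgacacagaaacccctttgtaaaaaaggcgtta
Spry2 -134 (chr14:105897397-105897696): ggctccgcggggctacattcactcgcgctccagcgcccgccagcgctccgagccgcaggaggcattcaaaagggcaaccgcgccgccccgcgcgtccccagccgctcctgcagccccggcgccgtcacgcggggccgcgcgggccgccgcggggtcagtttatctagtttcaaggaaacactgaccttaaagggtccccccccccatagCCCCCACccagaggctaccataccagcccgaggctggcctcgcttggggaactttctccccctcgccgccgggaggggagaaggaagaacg
Spry2 +9481 (chr14:105887020-105887319): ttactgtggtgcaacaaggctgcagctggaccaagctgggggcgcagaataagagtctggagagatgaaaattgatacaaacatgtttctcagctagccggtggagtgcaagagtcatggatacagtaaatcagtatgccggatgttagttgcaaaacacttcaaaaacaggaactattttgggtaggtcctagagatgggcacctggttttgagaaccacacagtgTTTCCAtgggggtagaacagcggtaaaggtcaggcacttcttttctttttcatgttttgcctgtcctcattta
Spry2 -2961 (chr14:105899823-105900122): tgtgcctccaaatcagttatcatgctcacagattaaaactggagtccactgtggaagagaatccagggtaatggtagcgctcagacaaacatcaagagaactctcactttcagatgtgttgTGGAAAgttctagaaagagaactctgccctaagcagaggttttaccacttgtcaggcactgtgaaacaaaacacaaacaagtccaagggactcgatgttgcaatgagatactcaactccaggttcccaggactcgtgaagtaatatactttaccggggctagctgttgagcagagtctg
Spry2 -26001 (chr14:105923032-105923331): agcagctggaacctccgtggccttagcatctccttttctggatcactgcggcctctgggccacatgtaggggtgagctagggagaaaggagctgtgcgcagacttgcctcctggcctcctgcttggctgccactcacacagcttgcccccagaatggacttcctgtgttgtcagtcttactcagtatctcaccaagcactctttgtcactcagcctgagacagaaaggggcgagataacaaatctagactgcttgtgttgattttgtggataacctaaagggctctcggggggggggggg
Spred2 +25284 (chr11:19949726-19950025): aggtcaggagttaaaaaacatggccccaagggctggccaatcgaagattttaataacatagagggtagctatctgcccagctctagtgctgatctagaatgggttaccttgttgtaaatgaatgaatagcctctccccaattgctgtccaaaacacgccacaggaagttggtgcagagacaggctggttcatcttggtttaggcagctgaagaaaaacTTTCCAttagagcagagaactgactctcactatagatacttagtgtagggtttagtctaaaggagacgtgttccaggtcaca
Spred2 +36872 (chr11:19961309-19961608): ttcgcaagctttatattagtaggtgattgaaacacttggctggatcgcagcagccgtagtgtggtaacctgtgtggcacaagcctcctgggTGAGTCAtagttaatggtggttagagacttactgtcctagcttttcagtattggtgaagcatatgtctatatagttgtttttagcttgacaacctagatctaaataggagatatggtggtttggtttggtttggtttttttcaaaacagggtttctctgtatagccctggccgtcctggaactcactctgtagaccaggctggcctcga

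The regions called between genotypes lay mostly at Spry2. In iNKT1 cells 7 of the 64 regions were called lower in SKG, 6 of them at Spry2 and 1 at Spred2, where 0.732% of all regions were called lower. In iNKT2 cells 9 of 64 were called lower, 8 at Spry2 and 1 at Spred2, against 4.73% of all regions. No member region was called higher in SKG, in iNKT1 (0.281% of all regions) or in iNKT2 (0.252%). Without the requirement of a 4-fold change, in iNKT1 12 regions were lower in SKG (Spry2 11, Spred2 1, against 1.42% of all regions) and in iNKT2 16 were (Spry2 12, Spred2 4, against 10.1%), and again none was higher, where 0.662% and 4.02% of all regions were. None of the 22 regions of Spry1, Spry4 and Spred1 passed adjusted p under 0.01 between genotypes in either subset. These counts of 0 come from edgeR's quasi-likelihood test. At an unadjusted p under 0.05 in that test, Spry1 had 1 region in iNKT1 and 6 in iNKT2, Spry4 had 1 in each, and Spred1 had none. The share of all regions at this unadjusted threshold is not given, so these counts show only how near the regions came to a call. Between genotypes, DESeq2 gave none of the 22 an adjusted p under 0.01, and limma gave such a value to 1 Spry1 region in iNKT2. Without replicate 1 of both iNKT2 groups the 4-fold count in iNKT2 was 7 (Spry2 6, Spred2 1). At adjusted p under 0.01 alone, Spry1 then had 2 lower regions and Spred2 8 in iNKT2, and in iNKT1 Spry2 had 12, Spred2 4 and Spry4 1. The share of all regions called in that fit is not given, so these counts are not read as results about single genes.

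**Figure D1:**
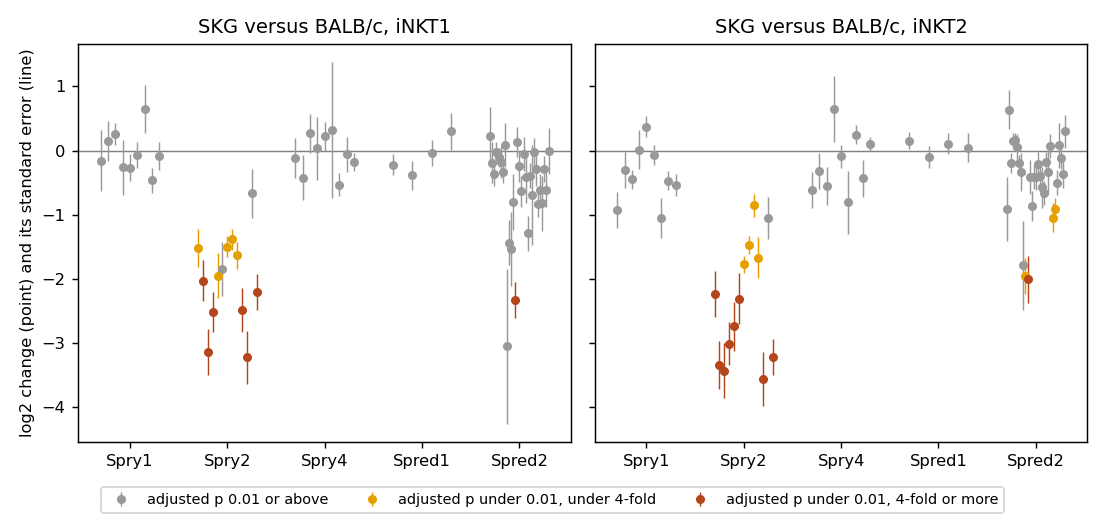
Log2 change between genotypes (SKG over BALB/c, y axis, with its standard error as a line) of each of the 64 regions, ordered by position within each gene (x axis), in iNKT1 cells (left) and iNKT2 cells (right). All 13 Spry2 regions lie below 0 in both panels, and 6 and 8 of them pass adjusted p under 0.01 with a change of at least 4-fold.

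All 13 Spry2 regions had lower estimates in SKG than in BALB/c in both subsets. Their median log2 change was -1.95 in iNKT1 and -2.31 in iNKT2, where the median of all regions was -0.03 and 0.01. The range ran from -3.22 to -0.67 in iNKT1 and from -3.57 to -0.85 in iNKT2. The genotype groups overlapped at none of the 13 regions in either subset, but this is a weak criterion with so few libraries. In iNKT1 they also did not overlap at most regions of the other genes, nearly all of them uncalled. Spry1 start, Spred1 start and Spred2 start were among these, so the lack of overlap in iNKT1 is not particular to Spry2. No share of all regions without overlap is given. The iNKT1 calls depended on the library count. Leaving out SKG iNKT1 replicate 1 left 3 Spry2 regions called at 4-fold and leaving out replicate 2 left 2, while 5 remained called without either BALB/c iNKT1 library. In iNKT2 the Spry2 count stayed between 6 and 8 when any 1 library was left out, and was 6 without replicate 1 of both genotypes.

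The Spry2 gene occupies chr14:105891947-105896819 on the minus strand (ENSMUSG00000022114.5), and no region of the table covered its start. The closest, Spry2 -134 (chr14:105896953-105898140), lay just upstream. It held 84.6 and 100 CPM in the BALB/c iNKT1 libraries, 37.1 and 33.5 in SKG iNKT1, 37.5, 33.3 and 43.1 in BALB/c iNKT2, and 11.7, 15.3 and 14.0 in SKG iNKT2. BALB/c iNKT1 was thus highest and SKG iNKT2 lowest, with SKG iNKT1 inside the range of BALB/c iNKT2. The log2 change between genotypes was -1.39 ± 0.17 (SE, adjusted p = 2.0e-04) in iNKT1 and -1.48 ± 0.14 (adjusted p = 3.5e-06) in iNKT2.

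On the other side of the start, Spry2 +285 (chr14:105894728-105896534) covered 1807 bp of the intron and, with Spry2 -134, was among the most accessible of the locus. It had the smallest p of the Spry2 locus between genotypes in both subsets. Its levels were 100 and 110 CPM in BALB/c iNKT1, 41.1 and 33.6 in SKG iNKT1, 51.6, 43.2 and 49.9 in BALB/c iNKT2, and 15.1, 12.4 and 14.8 in SKG iNKT2. The changes were -1.50 ± 0.16 (adjusted p = 5.9e-05) in iNKT1 and -1.77 ± 0.13 (adjusted p = 4.6e-07) in iNKT2, below the 4-fold limit in both.

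**Figure D2:**
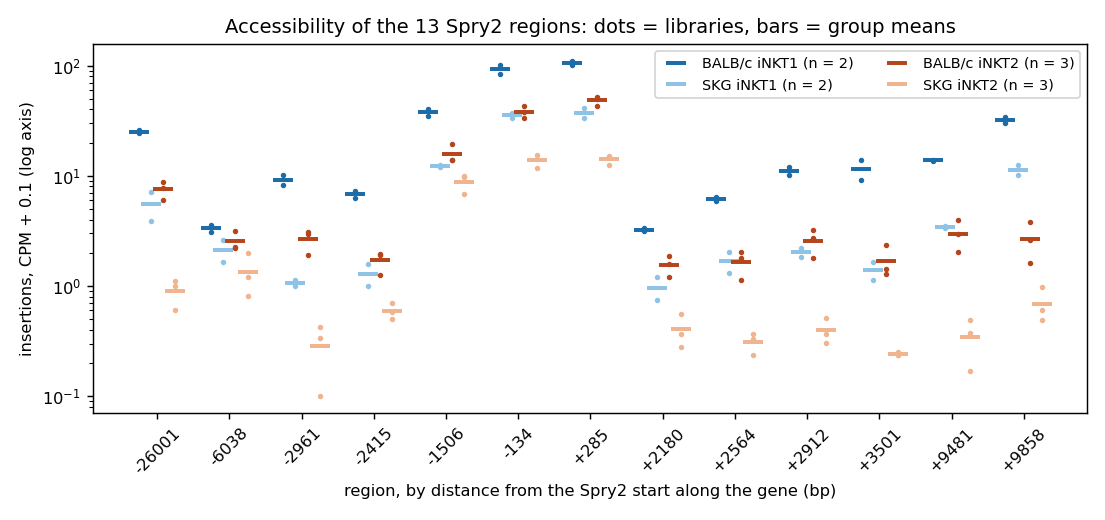
Insertions per library (dots) and group means (bars) at the 13 Spry2 regions, as CPM + 0.1 on a log axis, ordered by distance from the Spry2 start (x axis, bp). At every region BALB/c iNKT1 has the highest mean and SKG iNKT2 the lowest.

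Larger changes were seen at several regions away from the start, but not at Spry2 -6038 or, in iNKT2, at Spry2 -1506. The 5 Spry2 regions called lower at 4-fold in both subsets were +9481 beyond the 3′ end of the gene, +3501 and +2912 around the last exon, and -2961 and -26001 upstream. In SKG iNKT2 these rest on few insertions, summed over the libraries of the group. There were 20 at +9481, 10 at +3501, 21 at +2912, 15 at -2961 and 56 at -26001. Among all regions of the series 292 (0.308%) were called lower in both subsets. Those comparisons shared no library, but they came from the same fit. The labels do not say whether the 2 subsets were sorted from the same mice. Spry2 -26001 (chr14:105922820-105923542) fell from 24.4 and 25.7 CPM to 7.07 and 3.78 in iNKT1, and from 7.72, 5.98 and 8.66 to 0.891, 0.505 and 1.01 in iNKT2. The log2 changes were -2.20 ± 0.28 (adjusted p = 3.2e-04) and -3.21 ± 0.28 (adjusted p = 1.7e-06).

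Spry2 +9481 (chr14:105887001-105887338) held 13.7 and 13.6 CPM in BALB/c iNKT1 against 3.40 and 3.27 in SKG iNKT1. In iNKT2 it held 3.83, 1.93 and 2.89 CPM in BALB/c and 0.386, 0.276 and 0.0674 in SKG. The changes were -2.03 ± 0.32 (adjusted p = 1.4e-03) and -3.34 ± 0.37 (adjusted p = 1.2e-05). Its neighbour Spry2 +9858 lost less, -1.52 ± 0.30 (adjusted p = 7.0e-03) in iNKT1 and -2.24 ± 0.36 (adjusted p = 3.3e-04) in iNKT2. That neighbour had the steepest fall between subsets of the locus, from 30.3 and 34.0 CPM in BALB/c iNKT1 to 3.73, 1.51 and 2.51 in BALB/c iNKT2.

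The largest genotype change of the locus in both subsets was at Spry2 -2961 (chr14:105899780-105900164). BALB/c iNKT1 held 8.12 and 9.96 CPM and SKG iNKT1 0.899 and 1.03, a change of -3.22 ± 0.41 (adjusted p = 2.9e-04). BALB/c iNKT2 held 3.01, 1.80 and 2.89 CPM and SKG iNKT2 0.238, 0.321 and 0, a change of -3.57 ± 0.42 (adjusted p = 2.4e-05). The exonic region Spry2 +3501 (chr14:105892925-105893318) came next, at -3.14 ± 0.35 (adjusted p = 1.1e-04) and -3.43 ± 0.43 (adjusted p = 3.9e-05), and Spry2 +2912 changed by -2.51 ± 0.31 and -3.01 ± 0.34. Of the remaining regions, Spry2 -2415 was called at 4-fold only in iNKT1 (-2.49 ± 0.34, against -1.67 ± 0.32 in iNKT2) and Spry2 +2564 and +2180 only in iNKT2 (-2.74 ± 0.39 and -2.31 ± 0.40, against -1.95 ± 0.35 and -1.85 ± 0.42 in iNKT1). The test of the difference between subsets was not passed at any of these, with adjusted p of 0.37, 0.44 and 0.72.

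Spry2 -1506 was with Spry2 -2415 one of 2 regions with a smaller estimated loss in iNKT2 than in iNKT1. It stood at 35.0 and 40.5 CPM in BALB/c iNKT1, 11.9 and 12.4 in SKG iNKT1, 13.9, 13.8 and 19.1 in BALB/c iNKT2, and 6.69, 9.64 and 9.78 in SKG iNKT2. The changes were -1.64 ± 0.22 (adjusted p = 3.9e-04) and -0.85 ± 0.18 (adjusted p = 2.5e-03), and their difference of 0.78 ± 0.28 had an adjusted p of 0.13. Spry2 -6038 was the region furthest from any call, at -0.67 ± 0.39 (adjusted p = 0.43) in iNKT1 and -1.05 ± 0.33 (adjusted p = 0.029) in iNKT2. With the libraries paired by replicate number it passed adjusted p under 0.01 in iNKT2, which raised the Spry2 count there from 12 to 13.

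Spry2 was also the member with the clearest difference between subsets. In BALB/c mice 8 of the 64 regions were called lower in iNKT2 than in iNKT1 (Spry2 5, Spry4 2, Spred2 1, against 6.36% of all regions), and 3 higher (Spry1, Spry4 and Spred2 with 1 each, against 15.5%). In SKG mice 10 were lower (Spry2 7, Spry4 2, Spred2 1, against 6.96%) and 2 higher (Spry1 and Spred2, against 10.2%). The median log2 change of the 13 Spry2 regions from iNKT1 to iNKT2 was -1.82 in BALB/c and -2.17 in SKG, where the median of all regions was 0.06 and 0.14. Without BALB/c iNKT2 replicate 2 the BALB/c count of lower regions dropped to 4. Without replicate 1 of both iNKT2 groups it was 9 (Spry2 6), and in SKG 11 were lower (Spry4 3) and 1 higher. The subset comparisons share their BALB/c or SKG libraries with the genotype comparisons, so the subset and genotype changes of a region are not independent of each other.

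Summed over its 13 regions, the Spry2 locus held 357 ± 32.5 CPM (SD, n = 2) in BALB/c iNKT1, 128 ± 16.2 (n = 3) in BALB/c iNKT2, 115 ± 13.1 (n = 2) in SKG iNKT1 and 41.0 ± 3.12 (n = 3) in SKG iNKT2. The BALB/c iNKT2 libraries ranged from 110 to 141 CPM and the SKG iNKT1 libraries from 105 to 124, so these neighbours did not differ beyond their spread, whereas the highest and the lowest group each stood clear of the others. The fold between genotypes was nearly equal in the 2 subsets, 3.12-fold lower in iNKT1 and 3.13-fold lower in iNKT2, and so was the log2 change between subsets, -1.47 in BALB/c and -1.48 in SKG. Exact permutation tests over libraries gave p = 0.333 for iNKT1 and p = 0.1 for iNKT2, two-sided, which are the smallest values that 2 against 2 and 3 against 3 libraries allow.

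**Figure D3:**
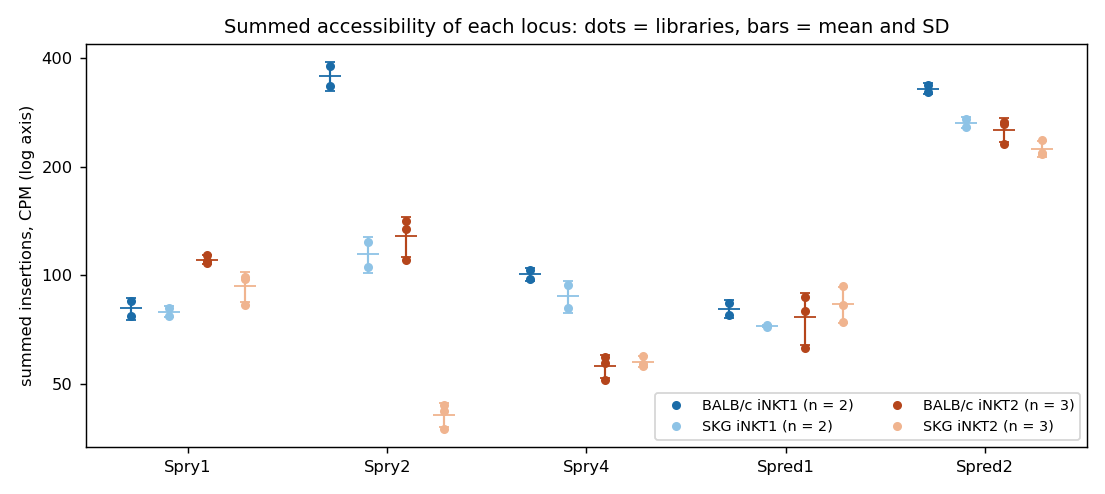
Summed insertions of the regions of each gene (y axis, CPM, log axis) in each library (dots), with the group mean and SD (bars), by gene (x axis) and group. At Spry2 the SKG means lie at 32.1% (iNKT1) and 31.9% (iNKT2) of the BALB/c mean, and at the other genes at 80.4% or above.

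The other loci moved little by the same measure. The log2 change of the summed level was -0.03 in iNKT1 and -0.25 in iNKT2 at Spry1, -0.21 and 0.04 at Spry4, -0.16 and 0.12 at Spred1, and -0.31 and -0.18 at Spred2, and the positive values of Spry4 and Spred1 in iNKT2 turned negative with library totals or quantile normalisation in place of TMM factors. Genotype libraries overlapped at Spry1 in iNKT1 and at Spry4, Spred1 and Spred2 in iNKT2, with exact p of 1, 0.7, 0.6 and 0.2. They did not overlap at Spry1 in iNKT2 or at Spry4, Spred1 and Spred2 in iNKT1. Exact p there was 0.1 and 0.333, the smallest possible values, as at Spry2. Per kb of region, Spry2 ranked first of the 5 loci in BALB/c iNKT1 and last in SKG iNKT2. It held 45.9 CPM per kb in BALB/c iNKT1, where Spred1 held 25.7, Spred2 24.2, Spry4 21.3 and Spry1 16.8. In SKG iNKT2 it held 5.27 CPM per kb against 12.2 at Spry4, 16.5 at Spred2, 19.3 at Spry1 and 26.5 at Spred1. All 10 pairs of genes were compared in each subset by the difference of their log2 summed levels. The genotype change at Spry2 exceeded that of each other gene by 1.33 to 1.61 in iNKT1 and by 1.39 to 1.77 in iNKT2, and the genotypes did not overlap in any of these 8 comparisons. Their exact p-values were again the smallest possible, 0.333 and 0.1, or 0.370 and 0.143 after adjustment over the 10 pairs of a subset. The pooled SD of these differences was 0.188 to 0.259 in iNKT1 and 0.113 to 0.227 in iNKT2. Differences among the 4 other genes were at most 0.29 in iNKT1 and 0.38 in iNKT2, and some of them reached the same smallest p, so the pairs with Spry2 differ from those in size and not in p.

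The lower accessibility in SKG did not end at the 50 kb window, as a profile drawn after the member values had been seen showed. Within 600 kb of the Spry2 start lay 54 regions, 41 of them outside the window, and the only other protein-coding gene starting there was Trim52. All 54 had negative estimates in iNKT1 and 52 of 54 in iNKT2. At adjusted p under 0.01, 27 of the 54 (50.0%) were lower in SKG for iNKT1 and 42 (77.8%) for iNKT2, and none was higher. The 15 regions between 600 and 800 kb downstream, around Ndfip2 and Rbm26, had a median log2 change of -0.10 in iNKT1 and -0.31 in iNKT2, with 0 and 3 lower. Upstream, the table held a single region between 600 and 800 kb, with changes of -0.57 in iNKT1 and -2.33 in iNKT2, and none from there to 2 Mb.

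**Figure D4:**
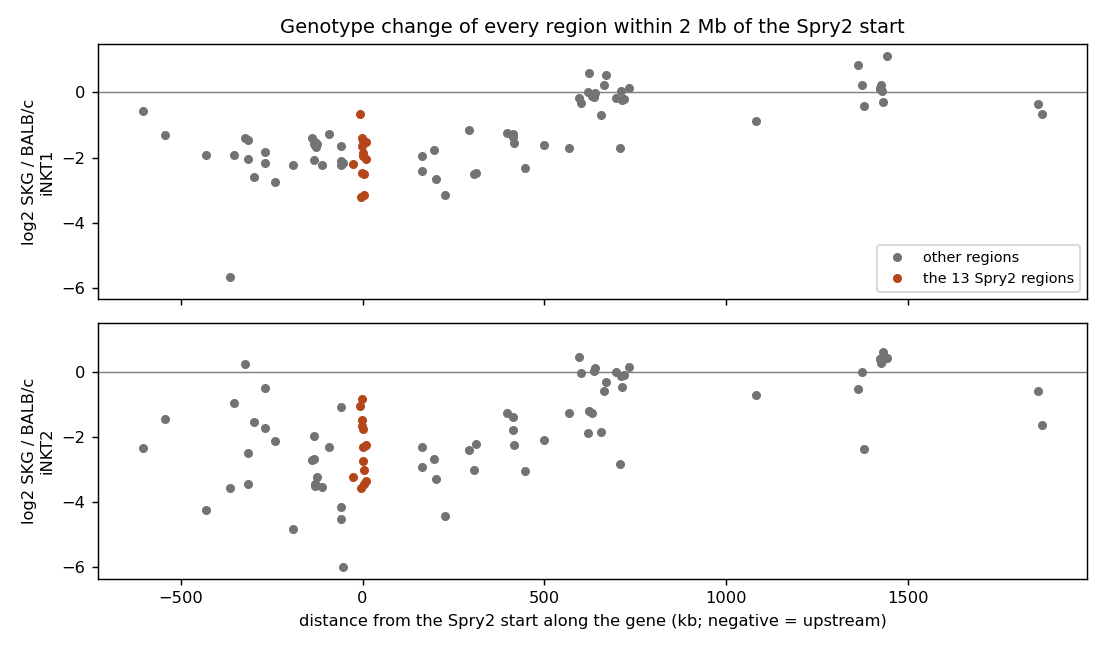
Log2 change between genotypes (SKG over BALB/c, y axis) of every region within 2 Mb of the Spry2 start against its distance along the gene (x axis, kb, negative upstream), in iNKT1 (top) and iNKT2 (bottom). The 13 Spry2 regions lie in a stretch of lowered regions that spans about 600 kb on each side, and downstream of it the points lie nearer to 0.

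The most accessible region of this stretch was intergenic and lay 129.9 kb upstream of Spry2 (chr14:106026683-106028037). It held 124 and 150 CPM in BALB/c iNKT1, more than either region next to the start, and 45.5 and 43.3 in SKG iNKT1. In iNKT2 it held 55.96, 29.4 and 39.9 CPM in BALB/c and 5.94, 2.07 and 2.83 in SKG. The changes were -1.62 ± 0.32 (adjusted p = 6.8e-03) and -3.46 ± 0.30 (adjusted p = 1.5e-06), and the difference between subsets was -1.84 ± 0.43 (adjusted p = 0.026).

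At 191.4 kb upstream (chr14:106088247-106088885) the difference between subsets passed the threshold, at -2.59 ± 0.44 (adjusted p = 5.0e-03). This region held 8.81 and 7.93 CPM in BALB/c iNKT1 and 1.80 in both SKG iNKT1 libraries, against 9.10, 5.71 and 8.37 in BALB/c iNKT2 and 0.297, 0.184 and 0.337 in SKG iNKT2. Summed over the 38 regions outside the window and up to 500 kb from the gene, the level fell by 1.69 on the log2 scale in iNKT1 (399 ± 29.4 to 124 ± 9.16 CPM) and by 2.91 in iNKT2 (135 ± 27.6 to 17.96 ± 2.40 CPM). The summed levels of the corresponding flanks of the other 4 loci changed by -0.01 to 0.23 in iNKT1 and by -0.16 to 0.18 in iNKT2. Counted by region, the Spry1 flank was also often lower in SKG. At adjusted p under 0.01, 9 of its 105 regions were lower in iNKT1 (8.57%, against 1.42% of all regions) and 41 in iNKT2 (39.0%, against 10.1%), 19 of the latter at 4-fold (18.1%, against 4.73%), and its median log2 change was -0.35 in iNKT1 and -0.95 in iNKT2. At the Spry2 flank 16 of 38 were lower in iNKT1 (42.1%) and 28 in iNKT2 (73.7%). The flanks of Spry4, Spred1 and Spred2 had medians between -0.08 and 0.12 in both subsets, with at most 7 regions lower.

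At Spred2, whose product is a membrane-associated Ras inhibitor, the start and most of the gene body had similar levels in both genotypes. Spred2 start (chr11:19923826-19924564) held 32.6 and 34.7 CPM in BALB/c iNKT1, 30.2 and 32.4 in SKG iNKT1, 26.5, 30.4 and 33.0 in BALB/c iNKT2, and 33.9, 35.3 and 30.9 in SKG iNKT2. The changes of -0.10 ± 0.15 and 0.16 ± 0.12 had adjusted p of 0.81 and 0.37. Over all 29 regions the median log2 change was -0.36 in both subsets, with 26 negative in iNKT1 and 22 in iNKT2.

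A few intronic regions of Spred2 stood out. Spred2 +36872 (chr11:19961247-19961669) held 10.5 and 11.6 CPM in BALB/c iNKT1 and 1.67 and 2.69 in SKG iNKT1, a change of -2.33 ± 0.28 (adjusted p = 2.0e-04) that was called. In iNKT2 it held 2.29, 3.47 and 3.13 CPM in BALB/c and 1.52, 1.65 and 1.75 in SKG, a change of -0.86 ± 0.24 (adjusted p = 0.014). BALB/c iNKT1 was the single group with high accessibility here, and the difference between the genotype changes, 1.47 ± 0.37, was the most positive of the 64 but did not pass the threshold (adjusted p = 0.037). Without SKG iNKT1 replicate 1 the call in iNKT1 was lost.

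Spred2 +25284 (chr11:19949659-19950091) was lower in SKG at a similar size in both subsets. It held 6.72 and 6.13 CPM in BALB/c iNKT1, 2.70 and 2.05 in SKG iNKT1, 7.18, 4.68 and 6.72 in BALB/c iNKT2, and 2.35, 1.10 and 1.08 in SKG iNKT2. The change was -1.96 ± 0.28 (adjusted p = 1.4e-04) in iNKT2 and -1.44 ± 0.35 (adjusted p = 0.024) in iNKT1. The adjoining Spred2 +26511 (chr11:19950886-19951224) was the only Spred2 region called at 4-fold in iNKT2, at -2.01 ± 0.37 (adjusted p = 1.1e-03), from 1.73, 2.06 and 1.90 CPM to 0.386, 0.459 and 0.607. With its low level and a change just over the limit, it was no longer called at 4-fold with the libraries paired by replicate number or without SKG iNKT2 replicate 2.

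Further into the intron, Spred2 +64687 (chr11:19989062-19989547) fell from 14.2, 10.7 and 11.9 CPM to 6.27, 7.26 and 6.07 in iNKT2, a change of -0.91 ± 0.17 (adjusted p = 1.2e-03), and its neighbour Spred2 +64210 changed by -1.04 ± 0.22 (adjusted p = 2.9e-03). The opposite subset preference was seen at Spred2 +57671 (chr11:19982046-19982531), the Spred2 region called higher in iNKT2. It held 0.747 and 0.353 CPM in BALB/c iNKT1 and 2.98, 7.75 and 8.70 in BALB/c iNKT2, and the subset change was 3.48 ± 0.49 (adjusted p = 2.0e-05) in BALB/c and 3.84 ± 0.60 (adjusted p = 7.3e-05) in SKG, while the genotypes overlapped in both subsets.

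Spry1, an inducible Sprouty gene at chr3:37639947-37644598 on the plus strand (ENSMUSG00000037211.12), had no called region between genotypes within the 50 kb window. The study reported that accessibility at Spry1 differed between subsets and that the SKG mutation affected it. The absence of calls here holds for this window and these thresholds only. Spry1 start (chr3:37639608-37640063) held 17.9 and 17.3 CPM in BALB/c iNKT1, 14.5 and 14.8 in SKG iNKT1, 15.3, 19.97 and 22.2 in BALB/c iNKT2, and 19.6, 27.9 and 27.0 in SKG iNKT2. The changes were -0.27 ± 0.21 (adjusted p = 0.59) and 0.37 ± 0.16 (adjusted p = 0.11). Its smallest adjusted p between genotypes, 0.023 in iNKT2, was found at Spry1 +5154, within the unclassified transcript Gm43820 (-1.05 ± 0.32), and at Spry1 -45863 (-0.92 ± 0.28), and Spry1 +14039 (chr3:37653986-37654850) changed by -0.46 ± 0.20 (adjusted p = 0.23) in iNKT1 and -0.47 ± 0.15 (adjusted p = 0.029) in iNKT2. Between subsets Spry1 +14039 rose by 1.30 ± 0.17 (adjusted p = 1.2e-05) in BALB/c, under 4-fold, and the distal Spry1 -45863 rose by 2.80 ± 0.36 (adjusted p = 8.9e-06), from 1.46 and 0.441 CPM in iNKT1 to 7.25, 8.39 and 5.32 in iNKT2.

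Widening the Spry1 window to 100 kb brought in 1 strong genotype change, at 98.4 kb downstream of the start (chr3:37738307-37738970). It held 18.2 and 15.9 CPM in BALB/c iNKT1 against 1.93 and 2.69 in SKG iNKT1, and 25.9, 25.3 and 21.4 in BALB/c iNKT2 against 1.78, 1.52 and 3.10 in SKG iNKT2. The changes were -2.88 ± 0.28 (adjusted p = 3.3e-05) and -3.56 ± 0.23 (adjusted p = 1.2e-07). This region lay closer to the start of the protein-coding gene Gm5148 than to that of Spry1, and it was picked out after its values were seen.

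At Spry4, on chromosome 18, no region was called between genotypes, whereas 3 were called between subsets in BALB/c. Spry4 start held 22.4 and 22.2 CPM in BALB/c iNKT1, 14.2 and 16.7 in SKG iNKT1, 14.8, 14.0 and 19.0 in BALB/c iNKT2, and 21.1, 18.002 and 17.4 in SKG iNKT2. The changes were -0.53 ± 0.18 (adjusted p = 0.13) in iNKT1 and 0.25 ± 0.15 (adjusted p = 0.24) in iNKT2, and the difference of 0.78 ± 0.24 had an adjusted p of 0.077. Its most accessible region, Spry4 -30107 in the long noncoding RNA AC133601.1, held 58.2 and 54.7 CPM in BALB/c iNKT1 and 26.3, 25.1 and 26.8 in BALB/c iNKT2, a subset change of -1.12 ± 0.12 (adjusted p = 1.7e-06), and it changed by -0.18 ± 0.14 and 0.10 ± 0.11 between genotypes. The neighbouring Spry4 -26357 was called lower in iNKT2 in both BALB/c (-2.33 ± 0.26, adjusted p = 2.3e-06) and SKG (-2.70 ± 0.29, adjusted p = 1.9e-06). The intronic Spry4 +5247 was called higher in BALB/c iNKT2, from 0.358 and 0 CPM to 2.82, 1.80 and 2.10, at 3.42 ± 0.71 (adjusted p = 6.4e-04).

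Spred1, which encodes the other neurofibromin recruiter of the set (chr2:117121374-117182279, plus strand, ENSMUSG00000027351.14), had no region called in any comparison. Spred1 start (chr2:117119968-117121585) held 53.5 and 50.2 CPM in BALB/c iNKT1, 45.5 and 43.4 in SKG iNKT1, 40.2, 49.3 and 57.4 in BALB/c iNKT2, and 49.5, 53.8 and 60.3 in SKG iNKT2. Across its 4 regions the genotype changes ran from -0.39 to 0.30 in iNKT1 and from -0.10 to 0.15 in iNKT2. In edgeR's test no region had an unadjusted p under 0.05 in any of the 5 contrasts. With limma, 1 Spred1 region had an adjusted p under 0.01 between subsets in SKG.

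Whether the genotype change differed between subsets was tested directly at each region. None of the 64 regions was called, where 0.189% of all regions had a higher and 0.341% a lower change in iNKT2. Of the 64, 9 had an unadjusted p under 0.05 in edgeR's test, a threshold for which no share of all regions is given. DESeq2 and limma also called none. The iNKT1 and iNKT2 genotype changes, which share no library, had across the 64 regions a Pearson r of 0.809 and a Spearman rho of 0.576. Among the 51 regions outside Spry2 these were 0.506 and 0.211. Neighbouring regions share libraries and chromatin context and are not independent points.

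**Figure D5:**
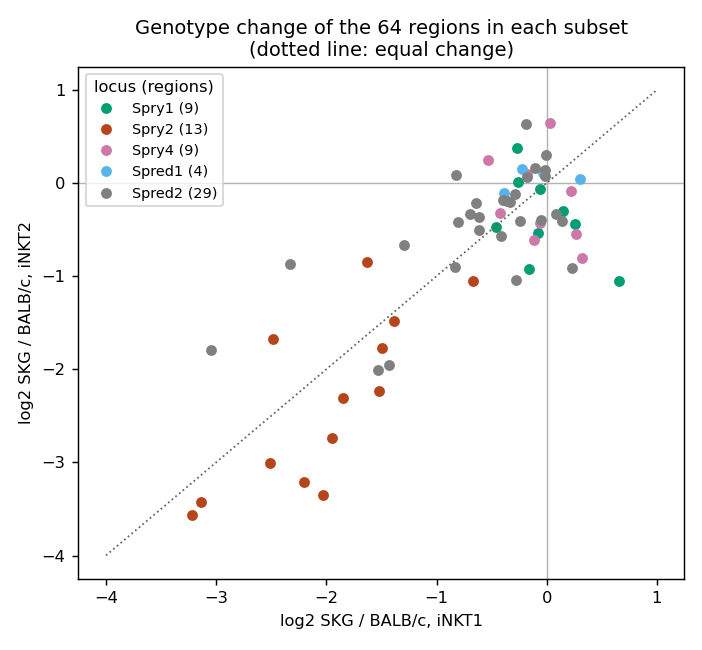
Log2 change between genotypes in iNKT1 (x axis) against that in iNKT2 (y axis) for the 64 regions, coloured by gene, with a dotted line of equal change. The Spry2 regions lie towards the lower left, together with several Spred2 regions. Among these are Spred2 +36872, Spred2 +25284, Spred2 +26511 and a Spred2 region of low counts that was not called. The other genes lie mostly nearer to 0, but reach -1.05 in iNKT2 at Spry1 +5154.

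Over the 10 libraries, the levels of Spry2 +285 on the log2(CPM + 1) scale were most like those of Spry2 -26001 (Pearson r = 0.997), Spry2 -134 (0.982) and Spry2 +2912 (0.969) among the 64 regions. The Spred2 region with the smallest p between genotypes in iNKT2, Spred2 +25284, was likewise closest to Spry2 regions, with r of 0.870 to Spry2 +285, 0.865 to Spry2 -2961 and 0.857 to Spry2 -26001. These values describe 4 groups of libraries and carry no test.

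In a sorted population, a smaller share of cells with an open region and a lower accessibility per cell cannot be told apart. Spry2 was higher in iNKT1, and the levels of the iNKT1 genes in the iNKT2 groups were 6.52 CPM in BALB/c and 7.49 in SKG at Tbx21, 72.3 and 85.5 at Il2rb, 9.68 and 11.2 at Cxcr3, and 15.7 and 12.3 at Ifng. The iNKT17 gene Il17a, at 0.162 CPM or below in the iNKT1 groups, stood at 8.32 CPM in BALB/c iNKT2 and 1.73 in SKG iNKT2, and Il23r at 6.05 and 5.08. In the iNKT1 groups both genes were at 0.417 CPM or below. The part of iNKT1 and iNKT17 cells in the changes at Spry2 was not tested.

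In all, 7 short motifs were searched on both strands in the central 300 bases of every region. The NFAT core TGGAAA was present in 3 of 13 Spry2 regions (23.1%, against 23.4% of all regions), the Egr core GTGGGNG in 4 (30.8% against 28.7%), the Runx core TGTGGT in 4 (30.8% against 30.3%) and the AP-1 site TGANTCA in 1 (7.69% against 10.6%). The T-box core GGTGTGA and the ETS core CCGGAA each occurred in 2 of 13 (15.4%, against 5.48% and 9.26%), as did the TCF core CTTTGA (against 21.5%). In the sequences shown above, NFAT matches stand in Spry2 +9481, Spry2 -2961 and Spred2 +25284, an Egr match in Spry2 -134 and an AP-1 match in Spred2 +36872, while Spry2 +285 and Spry2 -26001 hold none of the 3.

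The rest of the pathway was taken from a list of 30 genes, of which 29 were found in the annotation, with 438 regions by the same rule. Of these, 2 were called lower in SKG for iNKT1 (0.457%, against 0.732% of all regions) and 7 for iNKT2 (1.60%, against 4.73%), and none was higher, so both shares were below those of all regions. No region was called between genotypes at the Ras activators Rasgrp1, Sos1, Sos2 and Grb2 (59 regions) or at the ETS factors Etv4 and Etv5 (16 regions). The ERK phosphatases, which the study had itself named from these samples, had 1 of 56 regions called lower in iNKT1 (1.79%) and 3 in iNKT2 (5.36%), the latter near the share of all regions. A region 23826 bp downstream of the Dusp6 start was lower in both subsets, at -2.75 ± 0.41 (adjusted p = 1.0e-03) in iNKT1 and -2.78 ± 0.28 (adjusted p = 5.6e-06) in iNKT2, and a region 37026 bp upstream of the Dusp5 start changed by -2.87 ± 0.38 (adjusted p = 6.5e-05) in iNKT2. Rasa2, a Ras GTPase-activating protein, had 1 region lower in both subsets, -2.00 ± 0.39 (adjusted p = 6.8e-03) and -2.54 ± 0.23 (adjusted p = 1.9e-06). Araf and Ptpn11 had 1 region each in iNKT2, with means of 1.56 and 2.02 CPM in BALB/c and 0.328 and 0.0891 in SKG.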

How the data were processed

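Per the labels and the study's methods, the authors mapped paired ATAC-seq reads with Bowtie 1.0 to the mm10 genome, trimmed those that failed to map with Trim Galore and mapped these a second time, discarded mitochondrial reads and, with Picard, duplicates, called MACS2 summits in each replicate on short fragments, merged the widened summits into one region set without chromosome Y and blacklisted regions, and counted insertions in each region. The deposited values, 94823 regions of 300 to 7709 bp in 10 libraries, were taken as raw counts of insertions. The table's name calls them normalized, but they are whole numbers whose library totals run from 14988590 to 36342635, and the doubt bears on every CPM and p-value. Merging over all groups lets a region open in a single group enter the set.

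Counts were tested with edgeR 4.0.16 (R 4.3.3, quasi-likelihood, TMM factors) with 1 mean per group and 5 contrasts over all 10 libraries, and p-values were adjusted over all regions by the Benjamini-Hochberg method. Values after ± are standard errors beside log2 changes and SDs beside levels. Calls needed adjusted p under 0.01 and a 4-fold change. Alternatives were DESeq2 1.42.0, limma 3.58.1 on quantile-normalised values, library totals without TMM factors, a filter on mean counts, fits of the compared groups alone, windows of 25 and 100 kb, a replicate block and omission of each library. The edgeR test was checked on simulated counts. Gene positions came from GENCODE M21 and sequences from the RefSeq GRCm38 assembly (pysam 0.24.0), and exact permutation tests over libraries, two-sided, used scipy 1.17.1. Named regions were, for each gene, the one over or nearest to its start, those with the smallest p between genotypes in each subset, between subsets in BALB/c and in the test of the difference, and those called between genotypes. Pathway genes were named where called, and some genes of the pathway and marker lists are not reported here. Of the sequences shown, Spry2 +285 and Spred2 +25284 were those with the smallest p of their gene between genotypes in iNKT2. Any other region or sequence was picked after its values were seen. Members and lists were chosen with earlier results of these data known.

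Same-numbered iNKT2 libraries of the 2 genotypes deviated together from their group means (r = 0.423, 0.149 and 0.142), so a fit with the replicate number as a block was made as an alternative. Differently numbered libraries reached r = 0.210, and no label says what a number shares. The p-values in the text are from the fit without the block unless stated. In iNKT1 this r was 0.00546. Replicates of a group correlated but were not duplicates. The counts limit precision, with 646 to 11180 insertions per library summed over the Spry2 locus and far fewer at some of its single regions.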

Additional observations from a re-analysis of the deposited data

How the results depend on the processing

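Dropping the 4-fold requirement changed the member counts most. Between subsets, 8 regions were then higher and 26 lower in BALB/c, against 25.7% and 23.4% of all regions. In SKG 6 were higher and 23 lower, against 18.4% and 17.6%. Between genotypes, 12 were lower in iNKT1 (against 1.42%) and 16 in iNKT2 (against 10.1%). With adjusted p under 0.05 and a 2-fold change the same member counts were 7 and 23, 6 and 22, 15 and 16, and 1 region had a higher genotype change in iNKT2 than in iNKT1. The shares of all regions under this looser rule, and under the alternative fits below, are not given. These counts are therefore not read as results about the genes. A 100 kb window, which held 77 regions, gave 5 higher regions between subsets in BALB/c and 4 in SKG. It gave 14 lower regions between genotypes in iNKT2. A 25 kb window, which held 53 regions, gave 1 higher region between subsets in SKG. With library totals in place of TMM factors 4 regions were lower between subsets in BALB/c, and with limma 0 were higher between subsets in SKG. Omitting replicate 1 of both iNKT2 groups, chosen after seeing the data, left 1 higher region between subsets in SKG.

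Leaving out 1 library at a time gave 3 to 7 lower regions between genotypes in iNKT1 (3 without SKG iNKT1 replicate 1 and 3 without replicate 2) and 7 to 10 in iNKT2, 4 to 9 lower between subsets in BALB/c (4 without BALB/c iNKT2 replicate 2), and 1 to 2 higher between subsets in SKG (1 without SKG iNKT1 replicate 1 or SKG iNKT2 replicate 3). The genotype change of the summed level of the Spry2 locus, iNKT1, stayed between -1.76 and -1.53, and that of Spred1 in iNKT1 between -0.22 and -0.10.

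Summed genotype changes in log2 moved at Spry1 in iNKT1 to -0.18 (25 kb) and -0.28 (100 kb), and in iNKT2 to -0.11, -0.47 and, with library totals, -0.38. With library totals, which moved the median of all regions by -0.13 between genotypes in iNKT2, by 0.28 between subsets in BALB/c and by 0.18 in SKG, the genotype change of the summed level of the Spry4 locus, iNKT2, went from 0.04 to -0.0906 and that of Spred2 from -0.18 to -0.31. The replicate block moved no count of calls by over 1.5 times. With it, 8 regions were lower between genotypes in iNKT2, Spred2 +26511 lost its 4-fold call, Spry2 -6038 passed adjusted p under 0.01, and 7 were lower in iNKT1. Over 26 named regions, 31 of their values under an alternative newly passed the thresholds, 64 no longer did, and 2084 kept their side and direction. The causes were not tested. Where an iNKT1 group was left with 1 library, its spread was taken from the other groups. The iNKT1 calls rest on 2 libraries a group, and no exact test over libraries could reach p under 0.05.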
